A study of Mus musculus with 6 samples.

Results

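Genes of the trithorax MLL/COMPASS complexes and of the H3K27 demethylases, 10 in all, were followed in polyA RNA of mouse endosteal mesenchymal stromal cells, which lie along the inner bone surface. They are Kmt2a, Kmt2b, Kmt2c, Kmt2d, Kdm6a, Kdm6b, Ncoa6, Paxip1, Men1 and Wdr5, chosen by name for their role, and all 10 were found among the 55471 gene identifiers and passed the filter of a mean of at least 1 RPKM (reads per kilobase of transcript, scaled to mapped reads), which left 12223 genes tested. The libraries labelled Bap1 cKO (3) came from C57BL/6J mice of genotype Prx1-cre;Bap1fl/fl, and the libraries labelled Bap1 WT (3) from C57BL/6J mice of genotype Bap1fl/fl, so both groups carry the floxed alleles and differ in the Cre driver, whose promoter is active in limb bud mesenchyme. Cre without floxed alleles was not analysed here, and the ages of the mice are not given in the sources used here. Whether each library is a different animal is not stated in the labels, and the spread behind the p-values is that between libraries and may be technical. The labels give no sex.

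Methylation of histone H3 at lysine 4 (H3K4) marks active promoters and enhancers. It is written by the MLL/COMPASS family, in which a catalytic subunit (Kmt2a to Kmt2d, Setd1a or Setd1b) sits on a shared core of Wdr5, Rbbp5, Ash2l and Dpy30. Menin (Men1) joins the complexes of Kmt2a and Kmt2b, while Ncoa6, Paxip1 and the H3K27 demethylase Kdm6a (UTX) join those of Kmt2c and Kmt2d at enhancers. Kdm6a and Kdm6b (JMJD3) remove the repressive methyl marks that Polycomb repressive complex 2 (PRC2) places at lysine 27 of the same histone. The floxed gene, Bap1, codes for an enzyme that takes ubiquitin off histone H2A, where the other Polycomb complex puts it.

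The promoter windows of Kmt2c and Kmt2d, catalytic paralogs of which Kmt2c alone passed the test below, and of Kmt2a and Paxip1, which were higher together with Kmt2c, show what kind of promoter these genes have. They are RefSeq windows of 300 bases on GRCm38.p6, 250 before and 50 after the transcription start, printed along the gene's own strand: chr5:25498734-25499033 for Kmt2c, chr15:98871156-98871455 for Kmt2d, chr9:44881240-44881539 for Kmt2a and chr5:27791501-27791800 for Paxip1, all on the minus strand. Capitals mark the GC box GGGCGG on either strand.
Kmt2c: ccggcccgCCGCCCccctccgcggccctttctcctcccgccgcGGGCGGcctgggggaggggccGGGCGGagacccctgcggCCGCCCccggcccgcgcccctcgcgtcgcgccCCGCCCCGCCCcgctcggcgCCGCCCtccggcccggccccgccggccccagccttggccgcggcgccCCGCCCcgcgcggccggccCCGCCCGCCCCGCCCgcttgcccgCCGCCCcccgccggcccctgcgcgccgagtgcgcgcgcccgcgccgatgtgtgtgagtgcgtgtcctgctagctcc
Kmt2d: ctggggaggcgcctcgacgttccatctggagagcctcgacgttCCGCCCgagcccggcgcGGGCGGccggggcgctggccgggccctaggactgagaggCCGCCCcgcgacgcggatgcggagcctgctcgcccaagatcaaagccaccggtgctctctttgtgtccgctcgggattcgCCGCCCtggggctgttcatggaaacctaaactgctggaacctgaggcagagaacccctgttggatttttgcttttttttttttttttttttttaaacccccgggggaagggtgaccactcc
Kmt2a: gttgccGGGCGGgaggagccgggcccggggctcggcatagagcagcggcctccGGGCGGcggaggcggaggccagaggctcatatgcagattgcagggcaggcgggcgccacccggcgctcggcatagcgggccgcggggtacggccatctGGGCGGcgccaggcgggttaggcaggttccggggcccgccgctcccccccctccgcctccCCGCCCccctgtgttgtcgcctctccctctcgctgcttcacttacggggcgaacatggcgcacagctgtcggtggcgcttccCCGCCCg
Paxip1: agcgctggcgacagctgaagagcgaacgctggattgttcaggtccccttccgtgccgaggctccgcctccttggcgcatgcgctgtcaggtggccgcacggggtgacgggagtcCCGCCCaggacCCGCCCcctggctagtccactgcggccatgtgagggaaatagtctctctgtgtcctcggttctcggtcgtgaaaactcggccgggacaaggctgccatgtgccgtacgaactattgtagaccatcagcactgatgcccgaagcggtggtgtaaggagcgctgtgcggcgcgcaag
The windows held 56 CpG in Kmt2c, 27 in Kmt2d, 36 in Kmt2a and 28 in Paxip1, where the median of all 32851 promoter windows was 7. Of the 10 genes 8 matched a window (not Kmt2b and Kdm6b), and 8 of their 10 windows held at least 15 CpG, as did 34.6% of all windows. The exceptions were the Ncoa6 window, with 1, and the first of the 3 Men1 windows, with 11. The Ncoa6 window, chr2:155440734-155441033 on the minus strand, lies inside the gene, whose upstream end is at 155473894. It therefore describes an internal start and not the promoter at the upstream end of Ncoa6. Motifs were searched on both strands, where a stretch could count for more than 1 copy. The GC box stood in at least 1 window of 7 of the 8 members matched, not in Ncoa6, and in 35.7% of all windows. Members were counted by gene and the background by window, CpG-poor windows included, so the figures are not of the same unit. The CCAAT box (CCAAT) stood in this internal Ncoa6 window and in Men1, and in 37.4% of all windows. No member window held the FOX motif GTAAACA, the ETS motif CCGGAAG or the CRE motif TGACGTCA, which stood in 3.65%, 8.86% and 1.79% of all windows. These are matches of letters and not measured sites.

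The libraries of both groups were far apart as a whole, and cKO replicate 3 lay nearer to the WT libraries than the other cKO libraries did, at 53.02 on the first principal component against 79.8 and 80.27, with −71.99 to −69.79 in WT. Bap1 itself did not pass the test (28.27, 25.16 and 22.99 RPKM in the cKO libraries, 22.8, 22.72 and 24.01 in WT, limma Benjamini-Hochberg adjusted p = 0.29), and a level summed over all its exons does not check the deletion. Defining stromal markers were mostly lower in the cKO libraries, with 7 of 9 tested called lower and 1 higher. Over all genes tested, 26.5% were called lower and 34.7% higher. The summed level of the stromal markers was 106 to 216 RPKM in cKO libraries, against 2420 to 2560 RPKM in WT libraries. Lepr, a marker of perisinusoidal stroma, stayed at or below 0.14 RPKM in every library. The kidney epithelial transcription factor Pax8 had 180.94, 243.21 and 124.15 RPKM in the libraries labelled cKO and 0.19, 0.21 and 0.12 in WT, whereas the epithelial markers Epcam and Cdh1 reached at most 0.29 RPKM. The 6 kidney epithelial markers summed to 132 to 250 RPKM in cKO libraries, against 19.4 to 27 in WT, although of the 3 that were tested Pax8 alone was higher and 2 were lower. The 8 epithelial markers summed to 2.04 to 6.03 RPKM in cKO, against 12.6 to 14.9 in WT. Most of that sum was Krt19 (1.67, 1.74 and 5.79 RPKM in cKO, 13.28, 11.73 and 13.73 in WT), the only epithelial marker tested. Epcam and Esrp1 were listed at 0 in every WT library and above 0, at most 0.43 RPKM, in every cKO library. Krt8 was listed at 0 in every cKO library and at most 0.79 RPKM in WT. The blood cell markers summed to 5.66 to 7.9 RPKM in cKO and 2.39 to 3.26 in WT, and the endothelial markers to at most 0.65 RPKM. Most of the blood sum was the macrophage and lysosomal marker Cd68, the only blood marker tested, which was 2.97-fold higher in cKO (7.54, 7.23 and 4.33 RPKM, against 1.69, 2.08 and 2.66 in WT, limma Benjamini-Hochberg adjusted p = 0.00344), while Adgre1 and Cd3e were listed at 0 in all 6 libraries and Ptprc reached at most 0.03 RPKM. In bulk RNA, fewer cells of a type and less RNA per cell cannot be told apart, and the part of these differences in the results below was not tested.

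Of the 10 genes, 6 rose in the libraries labelled cKO (Kmt2a, Kmt2b, Kmt2c, Kdm6b, Paxip1 and Men1), none fell, and 4 did not pass (limma, Benjamini-Hochberg adjusted p under 0.05). Over all genes tested, 34.7% were called higher and 26.5% lower, 61.2% in either direction. The 6 genes that rose were also those whose cKO values all lay above their WT values, which held for 39.2% of all genes tested (29.8% had all cKO values below, 69% either), and the other 4 overlapped. The median log2 difference of the 10 genes was 0.41, beside 0.09 for all genes tested. A single member, Kmt2c, passed with a log2 difference of at least 1, as did 13.4% of all genes in that direction and 25.6% in either. Each member rested on an estimated 428 to 5706 fragments per library, a counting error of 1.32 to 4.83% (1 SD).

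**Figure D1:**
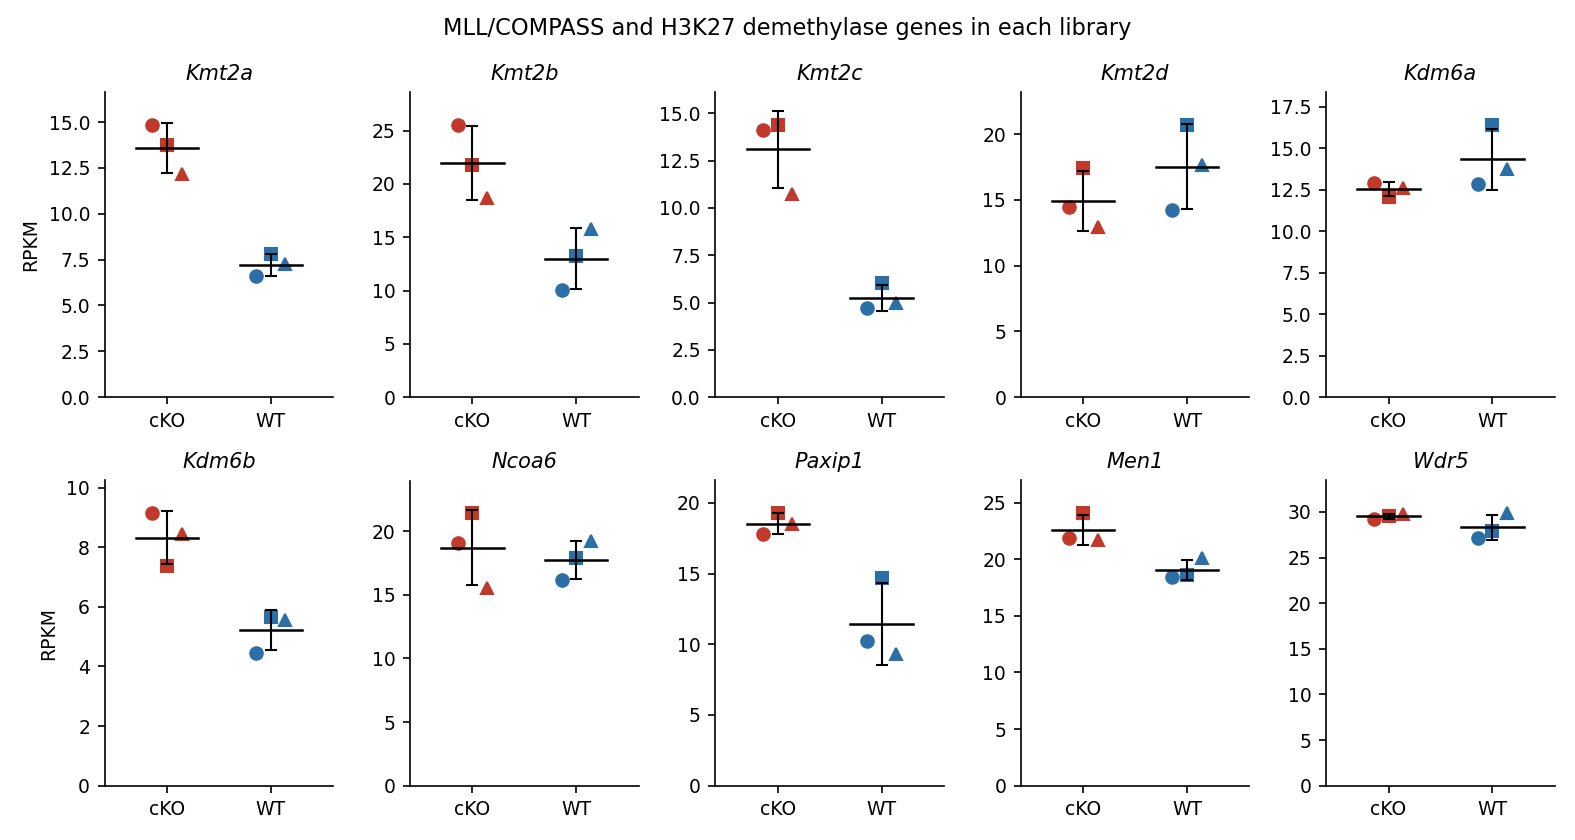
RPKM of the 10 genes (y axes, each from 0) in the libraries labelled cKO (red) and WT (blue). Circles, squares and triangles are replicates 1, 2 and 3, and lines and bars are the mean and SD (n = 3). The groups separate in 6 genes, with Kmt2c at 10.74 to 14.4 RPKM in cKO and 4.72 to 6.01 in WT, and overlap in Kmt2d, Kdm6a, Ncoa6 and Wdr5.

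The catalytic subunits Kmt2c, Kmt2a and Kmt2b had the largest log2 differences of the 10 genes. Kmt2c (MLL3; chromosome 5, 25271798 to 25498783, GRCm38), which methylates H3K4 at enhancers, had 14.14, 14.4 and 10.74 RPKM in the libraries labelled cKO and 4.72, 6.01 and 4.98 in the WT libraries. Every cKO value lay above every WT value, and cKO replicate 3 was the lowest of its group. The mean was 2.5-fold higher in cKO, 13.1 ± 2.04 against 5.24 ± 0.682 RPKM (SD, n = 3 each), 1.17 ± 0.15 on the log2 scale (SE; limma, Benjamini-Hochberg adjusted p = 0.000661). Kmt2a (MLL1; chromosome 9, 44803355 to 44881296), the methyltransferase that maintains Hox gene expression, stood at 14.86, 13.74 and 12.15 RPKM in cKO and at 6.62, 7.82 and 7.26 in WT. It rose 1.88-fold, by 0.82 ± 0.11 on the log2 scale (adjusted p = 0.000933, limma with Benjamini-Hochberg), with no overlap between the groups.

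Kmt2b (MLL2; chromosome 7, 30568858 to 30588726), the closest paralog of Kmt2a, had 25.55, 21.74 and 18.63 RPKM in cKO, against 10.02, 13.24 and 15.73 in WT. The lowest cKO library lay just above the highest WT library. The difference was 1.69-fold, 0.72 ± 0.18 on the log2 scale (limma Benjamini-Hochberg adjusted p = 0.0131). In Kmt2a, Kmt2b and Kmt2c alike, cKO replicate 3 was the lowest cKO library, and without it the folds were 1.98, 1.82 and 2.73. Kmt2d (MLL4; chromosome 15, 98831669 to 98871204), the main enhancer methyltransferase of differentiating cells, did not pass. It stood at 14.49, 17.39 and 12.92 RPKM in cKO and at 14.23, 20.71 and 17.62 in WT, with overlapping groups and a log2 difference of −0.21 (95% interval −0.61 to 0.18; limma adjusted p = 0.303 after Benjamini-Hochberg).

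Among the subunits that join particular complexes, Paxip1 (PTIP; chromosome 5, 27740080 to 27791691), an adaptor of the Kmt2c and Kmt2d complexes that also acts in DNA repair, stood at 17.79, 19.27 and 18.53 RPKM in cKO and at 10.26, 14.72 and 9.28 in WT. All cKO values lay above the WT values, among which WT replicate 2 stood apart at the top. The rise was 1.62-fold (log2 0.68 ± 0.17, limma Benjamini-Hochberg adjusted p = 0.0114). Men1 (menin; chromosome 19, 6334979 to 6340891), which tethers Kmt2a and Kmt2b to their targets, stood at 21.9, 24.07 and 21.7 RPKM in cKO and at 18.46, 18.61 and 20.1 in WT. Its rise of 1.18-fold barely passed (log2 0.23 ± 0.08, limma Benjamini-Hochberg adjusted p = 0.0489). The call was lost without WT replicate 1, 2 or 3 (0.152, 0.132 and 0.0773), and without cKO replicate 1 or 2 (0.0674 and 0.123).

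Ncoa6 (chromosome 2, 155390656 to 155473894), a nuclear receptor coactivator of the Kmt2c and Kmt2d complexes, stood at 19.1, 21.41 and 15.57 RPKM in cKO and at 16.17, 17.86 and 19.19 in WT. The WT range lay inside the cKO range. Wdr5 (chromosome 2, 27515157 to 27536535), the core subunit that presents the H3 tail, had the highest level of the 10 genes in both groups and the least spread in cKO, with 29.26, 29.57 and 29.76 RPKM in cKO and 27.12, 27.95 and 29.86 in WT. Neither gene passed, with log2 differences of 0.06 (95% interval −0.26 to 0.38) for Ncoa6 and 0.06 (−0.12 to 0.24) for Wdr5 (limma Benjamini-Hochberg adjusted p = 0.702 and 0.506), and both turned negative under quantile, TMM and median-of-ratios scaling.

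Of the H3K27 demethylases, one rose. Kdm6b (chromosome 11, 69398508 to 69413675), the inducible enzyme of the pair, stood at 9.14, 7.36 and 8.45 RPKM in cKO and at 4.45, 5.67 and 5.55 in WT, without overlap. That is 1.59-fold, 0.58 ± 0.13 on the log2 scale (limma Benjamini-Hochberg adjusted p = 0.00806). Kdm6a (X chromosome, 18162575 to 18279936) did not pass, at 12.92, 12.1 and 12.61 RPKM in cKO and 12.88, 16.43 and 13.73 in WT, a log2 difference of −0.17 (95% interval −0.44 to 0.09; limma Benjamini-Hochberg adjusted p = 0.211). All WT values but the lowest lay above every cKO value. The summed level of both enzymes was 20.9 ± 1.31 RPKM in cKO and 19.6 ± 2.4 in WT (SD, n = 3 each), and Kdm6b made up 41.4, 37.8 and 40.1% of it in the cKO libraries, against 25.7, 25.7 and 28.8% in WT.

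Since RPKM is per length, the levels can be ordered. In cKO the order of the means was Wdr5, Men1, Kmt2b, Ncoa6, Paxip1, Kmt2d, Kmt2a, Kmt2c, Kdm6a and Kdm6b, from 29.5 to 8.32 RPKM. The libraries of neighbours in this order overlapped except between Wdr5 and Men1, between Paxip1 and Kmt2d and between Kdm6a and Kdm6b. In WT it was Wdr5, Men1, Ncoa6, Kmt2d, Kdm6a, Kmt2b, Paxip1, Kmt2a, Kmt2c and Kdm6b, from 28.3 to 5.22 RPKM, with gaps below Wdr5, Paxip1 and Kmt2a. Kmt2a and Kmt2c thus lay below Kmt2b and Kmt2d in every WT library, whereas in cKO their ranges met that of Kmt2d. Among all genes tested, Kmt2c was at the 48.3 percentile of level in cKO and at the 28.2 percentile in WT.

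Plain RPKM ratios within a library do not depend on a factor that scales the whole library. The RPKM ratio of Kmt2c to Kmt2d was 0.976, 0.828 and 0.831 in the cKO libraries and 0.332, 0.29 and 0.283 in WT, a separation several times wider than either range. On the log2(RPKM + 1) scale, where the added 1 makes this hold only roughly, the ratio differed by 1.38 (1.52 with a pseudocount of 0.1). The ratio of Kdm6a to Kdm6b was 1.41, 1.64 and 1.49 in cKO and 2.89, 2.9 and 2.47 in WT, and differed by −0.76 on that scale. For Setd1a over Setd1b, the catalytic subunits of the SET1 complexes, it was 4.92, 4.44 and 3.9 in cKO against 2.08, 1.85 and 2.01 in WT, a log2 difference of 1.06. The ratio of Kmt2a to Kmt2b overlapped, at 0.582, 0.632 and 0.652 in cKO and 0.661, 0.591 and 0.462 in WT. An exact 2-sided permutation test of 3 against 3 cannot go below 0.1, and it gave 0.1 for the 3 ratios without overlap (0.133 adjusted over the 4 ratios) and 0.7 for Kmt2a over Kmt2b. Ratios of paralogs do not cancel shifts that differ between chromosomes, and were not computed with each chromosome centred. The median log2 difference was 0.42 on chromosome 11 (Kdm6b) and −0.12 on X (Kdm6a). It was 0.64 on chromosome 7 (Setd1a), 0.19 on chromosome 5 (Setd1b, Kmt2c) and −0.14 on chromosome 15 (Kmt2d). With centring, Kdm6a stood at −0.06 and Kdm6b at 0.17, Kmt2c at 0.98 and Kmt2d at −0.06.

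**Figure D2:**
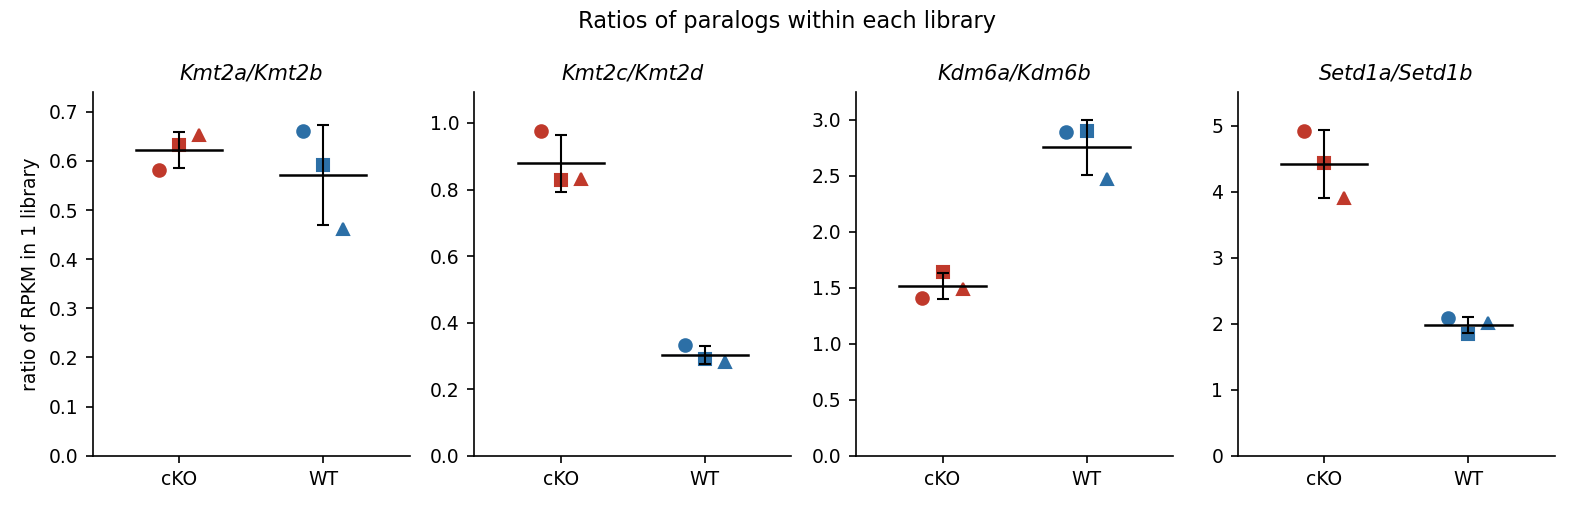
Ratio of the RPKM of paralogs within each library (y axes from 0) for libraries labelled cKO (red) and WT (blue), with circles, squares and triangles for replicates 1, 2 and 3 and the mean and SD (n = 3). Kmt2c/Kmt2d lies at 0.828 to 0.976 in cKO and 0.283 to 0.332 in WT, and only Kmt2a/Kmt2b overlaps.

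Among the 6 catalytic subunits of the family, the share of Kmt2d in their summed level was 15.2, 19 and 17.3% in cKO and 28.7, 33.2 and 29.2% in WT, so that it was the most abundant in each WT library and in no cKO library. Kmt2b took its place in the cKO libraries, with 26.8, 23.8 and 25%. Kmt2c made up 15 ± 0.692% in cKO and 9.14 ± 0.765% in WT (SD, n = 3 each). The summed level was 95.3, 91.4 and 74.6 RPKM in the cKO libraries and 49.5, 62.4 and 60.3 in WT.

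The genes lie on chromosomes whose genes differed between the groups to unlike extents. On chromosome 7, home of Kmt2b, 65.6% of 899 genes tested were called higher in cKO, with a median log2 difference of 0.64. On chromosomes 9 (Kmt2a), 11 (Kdm6b) and 5 (Kmt2c and Paxip1) the median was 0.34, 0.42 and 0.19, and on chromosomes 2, 15, 19 and X it was negative. Kmt2b stood only 0.08 above the median of its chromosome and Kdm6b 0.17, against 0.98 for Kmt2c, 0.49 for Paxip1, 0.48 for Kmt2a and 0.45 for Men1. With each chromosome centred, Kmt2b and Kdm6b no longer passed (limma Benjamini-Hochberg adjusted p = 0.687 and 0.292), while Kmt2c, Kmt2a, Paxip1 and Men1 did (0.00147, 0.00969, 0.0386 and 0.0022).

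Within 5 Mb of Kmt2b, 97 of 132 other genes tested were higher, with a median of 0.75, so Kmt2b stood 0.03 below it. Kmt2c and Paxip1 lie close together on chromosome 5, whose median was 0.19. Of 55 genes tested within 5 Mb of Kmt2c, 35 were higher and 2 lower (median 0.52), and of 75 around Paxip1, 48 were higher and 3 lower (median 0.50). Kmt2e, a MLL family relative without known methyltransferase activity, lies in the same stretch and rose 2.13-fold. Kmt2c stood 0.65 above its neighbours, Kmt2a 0.48, Kdm6b 0.41, Men1 0.34 and Paxip1 0.18. The part of the surroundings in these differences was not tested beyond the centring.

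**Figure D3:**
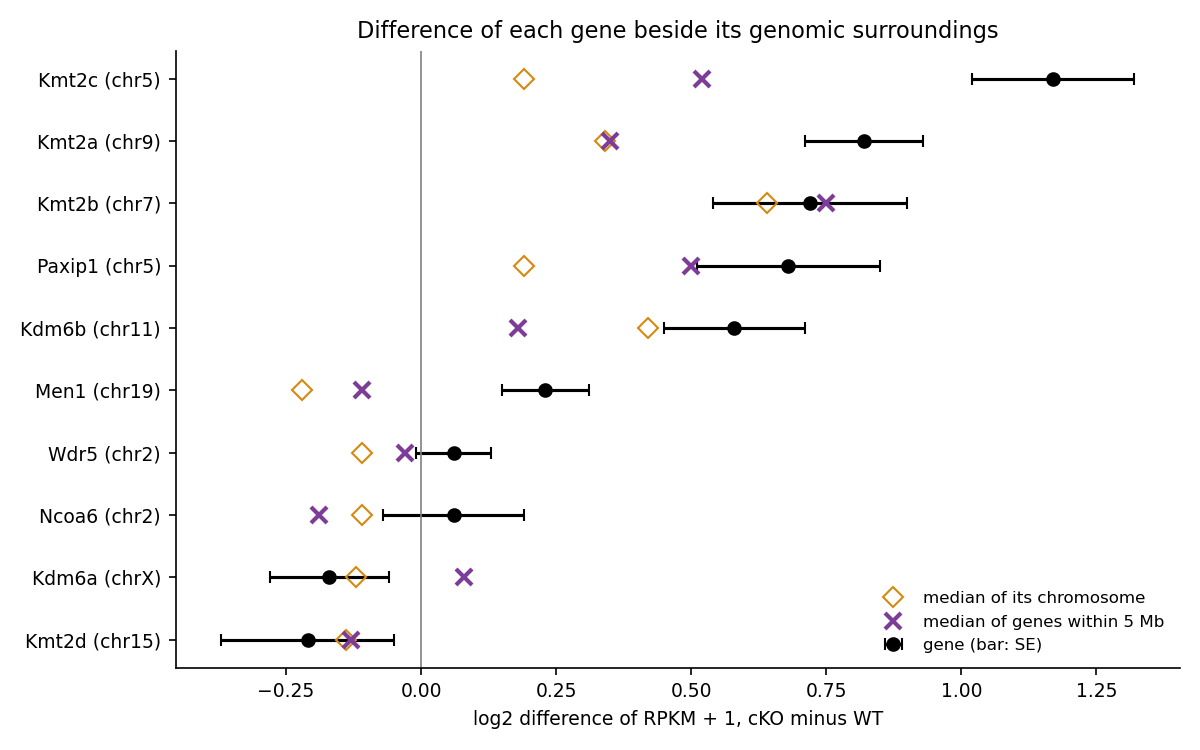
Log2 difference of RPKM + 1, cKO minus WT, of each gene (black, with SE) beside the median of all genes tested on its chromosome (open diamonds) and of genes within 5 Mb (crosses). Kmt2b (0.72) lies within its SE of both medians (0.64 and 0.75), and Kmt2c (1.17) lies above its own (0.19 and 0.52).

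Several of these genes are also long, with longest transcripts of 16470 bases for Kmt2a, 14967 for Kmt2c and 19823 for Kmt2d. Of 275 genes tested with a transcript of at least 10000 bases, 43.3% were higher in cKO and the median log2 difference was 0.29, against 0.08 for transcripts under 2000 bases. With 20 bins of transcript length centred, an alternative chosen after seeing the data, Kmt2c and Kmt2a still passed (log2 differences of 0.97 and 0.62, limma Benjamini-Hochberg adjusted p = 0.00132 and 0.0024), Men1 did not (0.294), and Kmt2d stood at −0.42 (0.055). Kmt2a, Kmt2c and Kdm6b share exonic bases with an antisense or unclassified transcript, which was listed at no more than 0.23 RPKM in any library.

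Beyond the 10 genes, the lists named here hold further subunits of the same complexes and genes of the opposing enzymes. The list counts below stand beside 34.7% called higher and 26.5% called lower over all genes tested. The lists are short, and no list was tested as a set. In the list of the Kmt2a and Kmt2b complexes 5 of 6 genes were higher and 1 lower, including 3 of the genes above (median log2 0.57). Psip1 (LEDGF), which anchors menin and Kmt2a to chromatin, stood at 114.44, 102.56 and 96.7 RPKM in cKO and at 27.83, 36.25 and 27.02 in WT, a 3.44-fold rise (limma Benjamini-Hochberg adjusted p = 7.73e-05). Tasp1, the protease that cleaves the Kmt2a and Kmt2b proteins into their mature parts, fell to 2.29, 2.16 and 3.49 RPKM in cKO, against 13.46, 13.87 and 13.28 in WT. It was 5.11-fold lower in cKO (log2 −2.01 ± 0.15, limma Benjamini-Hochberg adjusted p = 8.91e-05), the only gene of that list to fall. Both calls held under every alternative that was run.

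In the list of the Kmt2c and Kmt2d complexes, 2 of 6 rose (Kmt2c and Paxip1) and none fell, with a median of 0.03. Of all genes tested, 34.7% rose and 26.5% fell. Pagr1a, the partner of Paxip1, averaged 8.93 ± 3.68 RPKM in cKO and 8.75 ± 2.36 in WT (SD, n = 3 each). Of 7 SET1 complex genes 5 rose and none fell (median 0.41). Setd1a rose 2.01-fold, Bod1 1.94-fold, Wdr82, which links SET1 to RNA polymerase II, 1.4-fold, Hcfc1, a cofactor that Bap1 also binds, 1.34-fold and Bod1l 1.33-fold. The rises of Setd1a and Wdr82 were lost with each chromosome centred (limma Benjamini-Hochberg adjusted p = 0.059 and 0.177), as was that of Bod1l (0.118), which was lost without WT replicate 1 or 3 too (0.056 and 0.053). With transcript length centred, those of Hcfc1 and Bod1l were lost (0.0539 and 0.143). Setd1b averaged 4.33 ± 0.182 RPKM in cKO and 4.84 ± 0.307 in WT, Cxxc1, the CpG-binding subunit, 25.5 ± 4.21 and 22.7 ± 0.804, and neither passed.

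Of the 4 core subunits shared by all these complexes, Rbbp5 alone rose, 1.36-fold to 22.7 ± 0.98 RPKM in cKO, against 16.7 ± 0.813 in WT. Ash2l averaged 40 ± 5.56 RPKM in cKO and 43.5 ± 1.82 in WT, and Dpy30 66.9 ± 3.44 and 68.3 ± 0.78. The core list had a median of 0.01.

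Among the opposing and neighbouring enzymes, 2 of 6 H3K4 demethylases tested rose and 1 fell (median 0.05), beside 34.7% and 26.5% of all genes. Kdm5a rose 1.4-fold and Kdm1b 1.55-fold, a call lost without WT replicate 1 or 3 or cKO replicate 1 (limma Benjamini-Hochberg adjusted p = 0.0815, 0.0851 and 0.0648). The Kdm1b call was also lost with each chromosome centred (0.0635), transcript length centred (0.0508), the replicate block (0.0616) and no filter on low values (0.0541). Of 6 PRC2 core genes 3 rose and 1 fell (median 0.24). Ezh1, the H3K27 methyltransferase of quiescent cells, rose 4.03-fold to 28.3 ± 9.76 RPKM in cKO, against 7.03 ± 0.765 in WT, Eed rose 1.41-fold but turned negative with each chromosome centred (log2 −0.16), and the histone chaperone Rbbp7 was 1.26-fold lower in cKO. Ezh2 did not pass, at 33.0 ± 3.72 RPKM in cKO and 33.0 ± 2.73 in WT (SD; limma Benjamini-Hochberg adjusted p = 0.988). The summed RPKM of Ezh1 and Ezh2 over that of Kdm6a and Kdm6b was 3.08, 3.08 and 2.67 in cKO and 2.38, 1.71 and 2.14 in WT. Of the 2 methyltransferases only Ezh1 passed the test. This is a ratio of RNA levels that was not tested, and the mark itself was not measured. The acetyltransferase Ep300, which modifies the same lysine, rose 1.51-fold with overlapping groups, a call lost without WT replicate 1 or 2 or cKO replicate 1 or 2 (0.134, 0.121, 0.104 and 0.111). TMM, median-of-ratios and quantile scaling also removed it (limma Benjamini-Hochberg adjusted p = 0.0689, 0.0733 and 0.0713). So did length centring (0.143), the replicate block (0.0845) and no filter on low values (0.0726). Crebbp, the paralog of Ep300, did not pass. Of 5 further genes of methyltransferase families, not all of them trithorax genes, 4 rose (median 0.57). Among them were Nsd1, an H3K36 methyltransferase, 1.97-fold and Ash1l 1.31-fold. The Ash1l call was lost with transcript length centred (limma Benjamini-Hochberg adjusted p = 0.0977).

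Of 9 genes known as targets of Kmt2a and menin, mainly from blood and endocrine cells, 3 rose and 1 fell (median 0.25). Over all genes tested, 34.7% were called higher and 26.5% lower, so the count of rises is near that of genes at large. Hoxa7 rose 4.25-fold to 6.92 ± 1.52 RPKM in cKO, against 1.63 ± 0.614 in WT, Hoxa9 rose 2.25-fold to 47.7 ± 12.1, against 21.2 ± 1.63, and the cell cycle inhibitor Cdkn2c rose 1.72-fold. The Cdkn2c call was lost with each chromosome centred (limma Benjamini-Hochberg adjusted p = 0.0855). Meis1, the partner of Hoxa9 and named after its values were seen, was 1.63-fold lower in cKO (limma Benjamini-Hochberg adjusted p = 0.0191, and 0.0747 and 0.0546 without WT replicate 1 and 3).

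**Figure D4:**
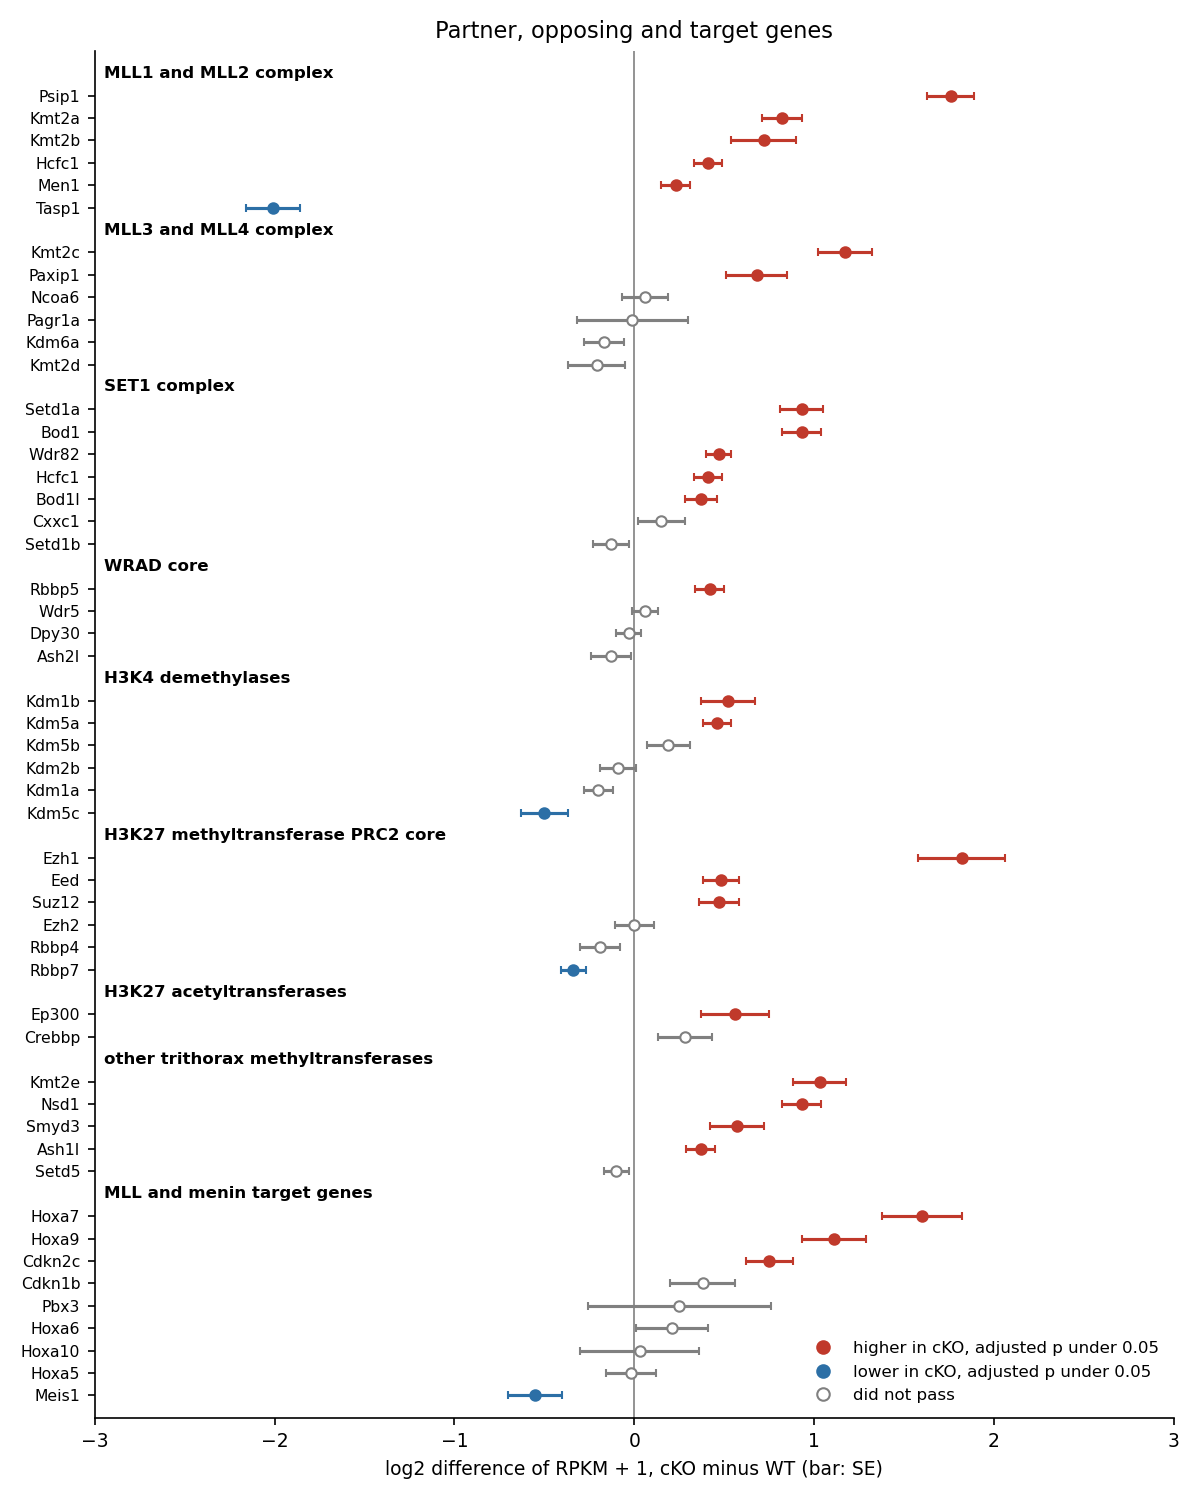
Log2 difference of RPKM + 1, cKO minus WT, with SE (6 libraries), for genes of the complexes and of opposing and target lists. Filled symbols passed at an adjusted p under 0.05, red higher and blue lower in cKO, and open symbols did not; Tasp1 (−2.01) and Psip1 (1.76) lie farthest apart within one list.

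Kdm6a is X-linked and in mouse escapes X inactivation, so other X-linked genes were set beside it. Xist, the RNA that coats the inactive X chromosome, had 5.44, 0.01 and 8.04 RPKM in the libraries labelled cKO and 96.12, 101.73 and 92.46 in WT. All cKO values were far below the WT range (limma Benjamini-Hochberg adjusted p = 0.00221). The Y-linked genes Uty, the Y copy of Kdm6a, Kdm5d, Ddx3y and Eif2s3y were listed at 0 in all 6 libraries. Of X-linked genes that also escape inactivation in mouse, Eif2s3x stood at 79.34, 82.45 and 90.46 RPKM in cKO and at 157.68, 154.78 and 157.8 in WT, 1.86-fold lower in cKO. The H3K4 demethylase Kdm5c was 1.42-fold lower, at 26.28, 22.89 and 18.99 RPKM in cKO and 31.49, 31.16 and 34.19 in WT (limma Benjamini-Hochberg adjusted p = 0.0129, 0.0527 without WT replicate 3 and 0.0748 with each chromosome centred). Ddx3x did not pass, at 100.44, 95.04 and 123.1 RPKM in cKO and 117.23, 122.92 and 118.17 in WT. The median of 409 X-linked genes tested was −0.12, and Kdm6a lay 0.06 below it. The part of the Xist difference in the level of Kdm6a was not tested.

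**Figure D5:**
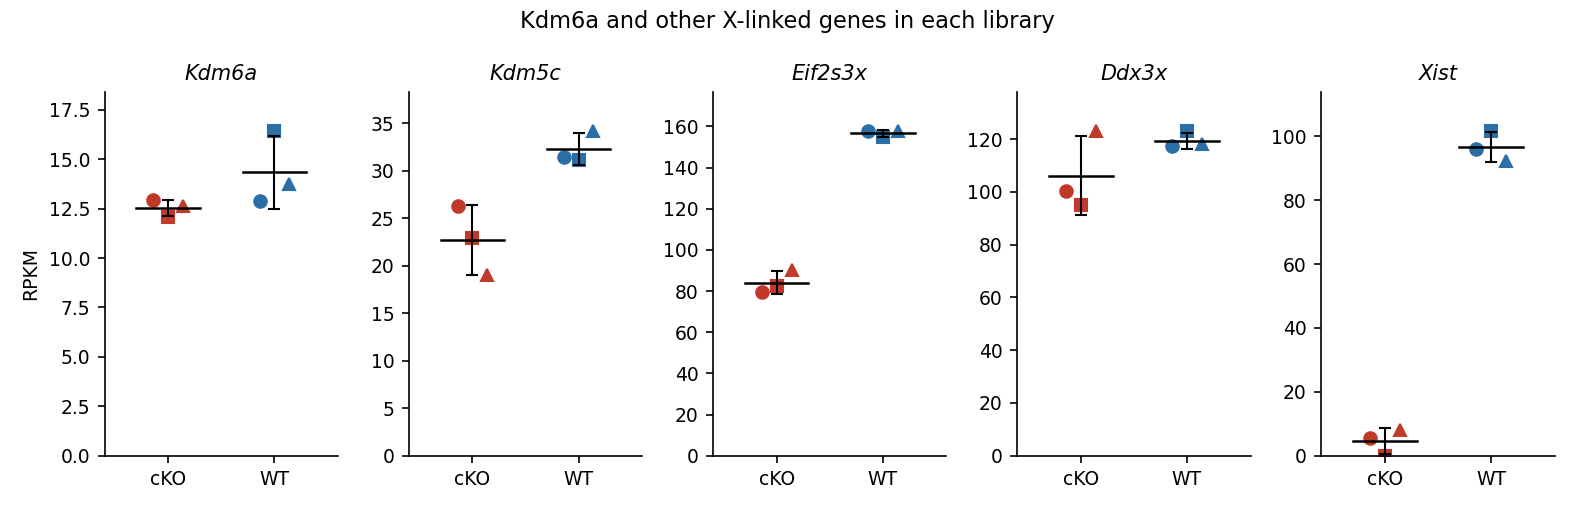
RPKM of Kdm6a and 4 other X-linked genes (y axes from 0) in the libraries labelled cKO (red) and WT (blue), with circles, squares and triangles for replicates 1, 2 and 3 and the mean and SD (n = 3). Xist and Eif2s3x separate widely between the groups, and Kdm6a overlaps at 12.1 to 12.92 RPKM in cKO and 12.88 to 16.43 in WT.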

How the data were processed

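Total RNA was extracted with TRIzol and its polyA RNA made into stranded libraries read as paired ends, per the labels' protocols. The authors deposited 1 value per gene and library as RPKM, scaled to gene length and mapped reads, with no library pooled. Per the submitters' processing notes, the tools were STAR 2.7.1a, RSEM 1.3.1 and cutadapt 2.8, with the build GRCm38. The annotation and the strand setting of the counting are not given in the sources used here. Symbols, coordinates and transcript lengths came from GENCODE M21 (GRCm38), which held 55144 of 55471 identifiers. Low values of single-transcript genes of 800 to 3500 bases rise in steps, which gave an estimated depth of 13.3 to 22.5 megafragments in cKO and 13.4 to 15.1 in WT, with 73.1 to 88.6% of these values within 0.2 of a whole fragment. The depth was chosen to make this share largest, and values under 0.2 of a fragment also counted. The 40% given by chance at a depth fixed beforehand is therefore not the chance level of this share. Fragment numbers of a gene use its longest transcript less 150 bases and cover counting error only.

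Differences were tested 2-sided with limma 3.58.1 in R 4.3.3 on log2(RPKM + 1) of genes averaging at least 1 RPKM, with a variance prior trended on the mean and genotype as the only term, and adjusted by Benjamini-Hochberg over 12223 genes. Log2 differences are on that scale, and folds are ratios of mean RPKM. Paralog ratios were tested with an exact permutation test in scipy 1.17.1. The limma procedure was tested on 20 simulated data sets with 200 of 12223 genes changed, a far smaller share than the 61.2% called here. It recovered 17.5, 74.1 and 96.1% of changes of log2 0.5, 1 and 2, with 5.43% false calls. In that setting most changes of log2 0.5 were missed, so a gene that did not pass may still differ. The genes and lists were chosen with earlier results of these data known. Named are every member, Bap1, all genes of the Kmt2c and Kmt2d, SET1 and core lists and the sex-linked list, and the 3 genes with the smallest p of each other list of complexes or targets. Marker lists, which that rule also covers, are given by sums and counts instead, with single markers named after their values were seen. The alternatives were pseudocounts of 0.1 and 0.5, other minimum means, other scalings and variance priors, sample weights, the replicate block, chromosome, length and GC centring, other thresholds and leaving out each library.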

Additional observations from a re-analysis of the deposited data

How the results depend on the processing

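Of 24 alternatives, 8 called 6 of the 10 genes higher, 13 called 5, 2 called 4 (each chromosome centred, and 20 bins of transcript GC content centred) and 1, an absolute log2 difference of at least 1, called 1, with 1632 genes higher and 1499 lower in all. None called a member lower. Of 12223 genes tested, the main fit called 4237 higher and 3239 lower. With each chromosome centred 3353 were called higher and 3577 lower, with GC content centred 3787 and 3825, and with TMM scaling 3736 and 3681. Kmt2c passed under all 24, Kmt2a and Paxip1 under all but the last. Kdm6b lost its call with GC centred (limma Benjamini-Hochberg adjusted p = 0.101) beside chromosome centring, and Men1 under 9 of 16 settings other than thresholds and left-out libraries, among them quantile, TMM and median-of-ratios scaling (0.224, 0.172 and 0.196). Length and GC centring were chosen after seeing the data. Log2 differences of genes that did not pass changed sign with TMM, median-of-ratios, quantile, length and GC adjustment for Ncoa6 (−0.024, −0.033, −0.058, −0.071 and −0.075) and Wdr5 (−0.030, −0.039, −0.048, −0.021 and −0.045), with equal totals for Pagr1a (0.023), Dpy30 (0.0039) and Ezh2 (0.031), and with each chromosome centred for Ezh2 (0.27) and for Eed (−0.16), which had passed. The cause was not tested. Leaving out 1 library gave 5 to 6 members higher, with 3504 to 4483 of all genes tested higher and 2626 to 3623 lower. The log2 differences were then −0.035 to 0.18 for Ncoa6, −0.28 to 0.25 for Pagr1a, −0.064 to 0.0087 for Dpy30, −0.075 to 0.084 for Ezh2 and −0.04 to 0.21 for the ratio of Kmt2a to Kmt2b. Libraries with the same replicate number did not deviate together (r = −0.017, 0.05 and −0.019). With the replicate number as a block, 5 members and 3811 genes were higher and 2938 lower, and Men1 lost its call (0.128).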
